A study of Mus musculus with 8 samples.

Results

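The genes described here are 50 genes of the cell cycle and of DNA replication, listed by name, and their mRNA was followed in mouse 3T3-L1 adipocytes. All 50 were found among the 43629 genes of the count file and all 50 passed the filter on low counts, so that they are 50 of the 14587 genes tested over the 8 libraries. They were divided by role into 6 subunits of the MCM helicase, 10 factors of origin licensing and firing, 8 subunits of polymerases, clamp and clamp loader, 4 enzymes of deoxynucleotide supply, 8 genes of the G1 cyclins and the G1/S transition, 4 genes of the later cyclins and Cdk1, and 10 genes of mitosis and chromosome segregation. The rule lists them by name and sets no cutoff on a measured value, but the list was chosen with earlier results of these data known.

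3T3-L1 is a mouse fibroblast-like line that turns into fat-storing adipocytes in culture. In this study all cells were differentiated with insulin, dexamethasone, isobutylmethylxanthine and rosiglitazone, and were used on day 8. For 24 h they were left untreated, or given 2 µM A66, an inhibitor selective for the p110α catalytic subunit of PI3-kinase, or 0.5 mM palmitate bound to albumin, a saturated fatty acid, or both together. Each of the 4 groups has 2 libraries, from 2 biological repeats per the methods, so p-values measure the spread between pairs of cultures. The doses are those of the sample labels. The methods text gives 1 µM A66 with DMSO as vehicle, so the dose and the nature of the control are uncertain. The labels name no albumin-only control for the palmitate cultures. Library totals ranged from 42247091 to 57529803 counts, and the floor of 3 counts corresponded to 0.0521 to 0.071 CPM, a limit that covers counting error only. CPM is the count of a gene relative to the size of its library after TMM scaling, which adjusts for differences in composition between libraries.

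The cells were checked against marker genes. In every library 11 adipocyte markers, among them Adipoq and Fabp4, summed to between 15440 and 18470 CPM. The 11 matched markers of preadipocytes or fibroblasts, many of which adipocyte cultures also express, summed to between 8076 and 8953 CPM, with Pdgfra at 87.96 to 108.4, Pdgfrb at 190.6 to 219.7, Thy1 at 26.8 to 33.1 and Ly6a at 15.4 to 24.4 CPM over the 8 libraries. Dlk1, a defining marker of preadipocytes, had no count in any library. The 8 leukocyte markers summed to between 13.1 and 19.1 CPM, with 2 of them at 0 throughout, and the 5 endothelial markers to between 0.98 and 1.77 CPM. The adipocyte sum was 17950 and 18050 CPM in untreated cells, 18470 and 17740 under A66, 16030 and 17000 under palmitate, and 15440 and 16530 under palmitate plus A66. In these bulk libraries, a smaller number of cycling cells and less mRNA per cell cannot be told apart, and the part that any shift in cell makeup has in the results was not tested.

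A cell that is about to divide commits itself in G1, when D-type cyclins with Cdk4 or Cdk6, and then E-type cyclins with Cdk2, phosphorylate the retinoblastoma protein and release E2F transcription factors. E2F turns on the genes that load the MCM helicase on replication origins, build the replication fork and make deoxynucleotides. Genes of mitosis are switched on later, in G2, largely through CHR elements and CCAAT boxes bound by MuvB complexes and NF-Y. 3T3-L1 cells divide for a short time after the differentiation stimulus, the clonal expansion, and then leave the cycle as they mature. PI3-kinase signalling is a known upstream input of the D-type cyclins in growing cells.

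The start regions of the genes were searched for these elements. Promoters of 300 bases, which reach from upstream of the start to just inside the transcript and were taken from the RefSeq table on GRCm38.p6, were found for 39 of the 50 genes, which have 42 promoters in it. An E2F match was any of TTTCCCGC, TTTCGCGC, TTTGGCGC or TTTGCCGC on either strand, and 14 of 39 genes (35.9%) had one, against 2.6% of the 27025 genes in the table. A CHR match, TTTGAA or TTCGAA on either strand, was present in 15 of 39 genes (38.5%), against 21.7% of all genes. A CCAAT box on either strand was present in 29 of 39 genes (74.4%), against 41.1%. Counted by promoter, these shares were 33.3%, 35.7% and 73.8% of the 42 promoters, and 2.26%, 19.2% and 37.4% of the 32851 promoters of the table. A match is a string of letters and not evidence that a factor binds there.

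Of the 5 MCM genes matched, 4 had an E2F match, as had 4 of 7 licensing and firing genes, 3 of 6 genes of polymerases and clamp loader, 2 of 5 G1/S genes and 1 of 3 genes of the later cyclins and Cdk1. It was found in 0 of 4 genes of deoxynucleotide supply and 0 of 9 mitotic genes. A CHR match was found in 8 of 9 mitotic genes, in 2 of 3 of the later cyclins and Cdk1, in 2 of 5 MCM genes, in 2 of 7 licensing and firing genes and in 1 of 6 genes of polymerases and clamp loader. The CCAAT box was found in 8 of 9 mitotic, 5 of 5 MCM and 5 of 7 licensing and firing genes, and in 3 of 3 of the later cyclins and Cdk1. It was less frequent in the other roles, with 3 of 5 G1/S genes, 3 of 6 genes of polymerases and clamp loader and 2 of 4 genes of deoxynucleotide supply. Below are 3 promoters, shown because Mcm7 is the single gene of the list that passed the test in any comparison, because Mcm5 also has E2F matches but had negative fold changes with A66, and because Top2a has the CHR matches found in most mitotic genes. Each is written 5′ to 3′ on the strand of its gene. Capitals mark the E2F matches in Mcm7 (chr5:138171834-138172133, minus strand) and in Mcm5 (chr8:75109259-75109558, plus strand), where the 2 matches overlap in a single run, and the CHR matches in Top2a (chr11:99024140-99024439, minus strand).
Mcm7: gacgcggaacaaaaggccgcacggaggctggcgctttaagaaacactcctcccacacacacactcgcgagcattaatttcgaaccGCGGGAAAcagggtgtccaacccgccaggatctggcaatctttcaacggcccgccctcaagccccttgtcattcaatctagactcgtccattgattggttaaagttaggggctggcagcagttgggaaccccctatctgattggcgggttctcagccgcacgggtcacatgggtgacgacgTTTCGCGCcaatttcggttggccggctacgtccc
Mcm5: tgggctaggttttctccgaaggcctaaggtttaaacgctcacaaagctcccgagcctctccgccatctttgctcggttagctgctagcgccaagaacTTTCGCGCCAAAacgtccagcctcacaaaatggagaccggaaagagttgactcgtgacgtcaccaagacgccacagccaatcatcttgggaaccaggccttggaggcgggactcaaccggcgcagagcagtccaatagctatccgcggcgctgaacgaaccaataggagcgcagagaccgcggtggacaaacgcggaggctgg
Top2a: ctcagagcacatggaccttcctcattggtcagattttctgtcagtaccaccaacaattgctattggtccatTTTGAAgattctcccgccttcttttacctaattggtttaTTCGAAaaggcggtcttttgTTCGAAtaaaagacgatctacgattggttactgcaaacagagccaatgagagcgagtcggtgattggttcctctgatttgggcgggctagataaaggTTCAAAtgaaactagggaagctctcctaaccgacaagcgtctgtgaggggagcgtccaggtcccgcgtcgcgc
Mcm7 has 2 E2F matches, 1 CHR match and 3 CCAAT boxes in this window, and a further RefSeq start of the gene had no E2F match. Mcm5 has 2 E2F matches, no CHR match and 3 CCAAT boxes. Top2a has no E2F match, 4 CHR matches and 6 CCAAT boxes.

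Most of these genes were expressed at low levels. The median of their mean CPM was 7.74, and 38 of the 50 lay below the median of all genes tested. The level spanned from 0.747 CPM for Ccnb2, the cyclin B2 gene, to 745.3 CPM for Ccnd2, the cyclin D2 gene, which alone supplied 50.5% of the summed CPM of the list and stood at percentile 99.3 of all genes tested. The lowest count of any of the genes in any library was 17. The highest of the 8 libraries was more than 1.5 times the lowest for 17 genes, and more than 2 times the lowest for 5, which were Ccnb2, Cdc6, Birc5, Bub1 and Aurkb.

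**Figure D1:**
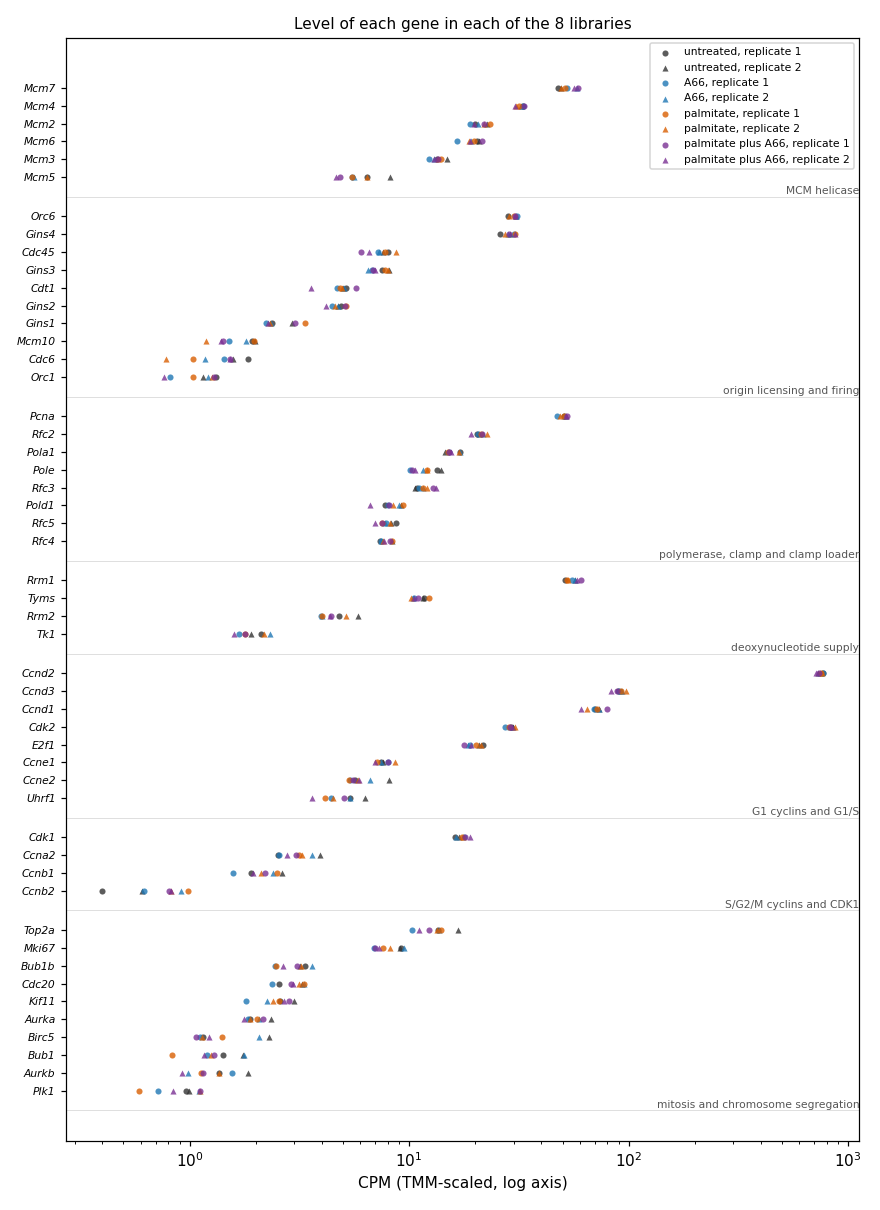
The plot gives the level of each of the 50 genes (rows, grouped by role) in each of the 8 libraries as TMM-scaled CPM on a log axis, with colours for the groups, circles for replicate 1 and triangles for replicate 2. The libraries of a gene lie close together compared with the distance between genes, and the widest scatter is seen among genes near or below 2 CPM.

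On a scale that allows genes to be compared, CPM per kb of summed exon length, Ccnd2 remained the highest at 79.2. It was followed by Gins4, a subunit of the GINS complex, at 21.3, by Pcna, the sliding clamp of the polymerases, at 21.1, and by Ccnd1 at 15.0. The lowest were Mcm10 at 0.21, Cdc6 at 0.26 and Bub1 at 0.307, which act in helicase activation, helicase loading and the spindle checkpoint. The 6 MCM subunits, which form a ring with 1 copy of each, were not at equal mRNA levels per length, with Mcm7 at 11.97, Mcm4 at 8.97, Mcm6 at 4.17, Mcm3 at 3.59, Mcm2 at 3.04 and Mcm5 at 1.47 CPM per kb.

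The D-type cyclins, which are the first to respond to growth factors, were the most abundant cyclin transcripts, and those of Ccnd2 and Ccnd3 had the narrowest intervals among the cyclins. Ccnd2 had 766.6 and 727.7 CPM in untreated cells, 770.1 and 741.2 under A66, 749.9 and 760.1 under palmitate, and 735.9 and 711.1 under palmitate plus A66. The range of untreated cells contained all but 2 of these values, and every 95% interval of the 4 comparisons lay between 0.902-fold and 1.07-fold. Ccnd3, cyclin D3, had 89.7 and 92.2 CPM in untreated cells, 90.3 and 93.7 under A66, 92.2 and 96.9 under palmitate, and 88.8 and 83.0 under palmitate plus A66. Both cultures with palmitate plus A66 lay below the other 6. Its log2 fold change was -0.14 against palmitate (95% interval -0.23 to -0.04, edgeR adjusted p = 0.123) and -0.10 against A66 (-0.19 to -0.0026, edgeR adjusted p = 0.325), and without palmitate plus A66 replicate 2 these were -0.09 and -0.05.

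Ccnd1, cyclin D1, had 70.6 and 73.2 CPM in untreated cells, 69.7 and 73.4 under A66, 71.9 and 65.0 under palmitate, and 79.8 and 60.8 under palmitate plus A66. The highest and the lowest of the 8 values were thus the 2 cultures that received both agents, and all groups overlapped. In the 4 comparisons its intervals lay between 0.852-fold and 1.15-fold. Exons of Ccnd1 share 23.4% of their bases with LTO1 on the opposite strand. Of the 50 genes, 19 share exon bases with another gene, among them Gins2 (67.3% with Gse1), Ccne2 (17.4% with Ints8), Ccna2 (12.5% with Exosc9) and Orc1 (10.8% with Gm12743), all on opposite strands. Whether the counting used strand is not given in the sources used here, so a part of the reads of these genes could belong to their neighbours.

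The E-type cyclins and Cdk2, which drive entry into S phase, had fewer CPM than the D-type cyclins. Cdk2 had 29.2 and 29.8 CPM in untreated cells, 27.4 and 29.0 under A66, 28.5 and 30.3 under palmitate, and 28.8 and 29.4 under palmitate plus A66. Its intervals ran from 0.873-fold to 1.13-fold. Ccne1 had 7.44 and 7.64 CPM in untreated cells, 8.00 and 7.44 under A66, 7.16 and 8.67 under palmitate, and 8.04 and 7.03 under palmitate plus A66, with overlap between all groups. Ccne2 had 5.70 and 8.12 CPM in untreated cells, 5.37 and 6.67 under A66, 5.34 and 5.84 under palmitate, and 5.57 and 5.94 under palmitate plus A66. A single untreated culture stood above the rest. The log2 fold change of Ccne2 with palmitate was -0.32 (-0.62 to -0.01, edgeR adjusted p = 0.389), and it was -0.03 without that culture and -0.54 without the other untreated one.

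E2f1 codes for an activating member of the E2F family. It had 21.8 and 20.8 CPM in untreated cells, 18.9 and 18.6 under A66, 20.3 and 21.2 under palmitate, and 17.9 and 19.1 under palmitate plus A66. The 4 cultures without A66 lay above the 4 with it. The log2 fold change was -0.18 for A66 against untreated cells (-0.33 to -0.03, edgeR adjusted p = 0.276) and -0.17 for palmitate plus A66 against palmitate (-0.32 to -0.01, edgeR adjusted p = 0.292), and neither passed the threshold of an adjusted p under 0.05. Uhrf1, which guides maintenance DNA methylation at replication forks, had 5.37 and 6.31 CPM in untreated cells against 4.13 and 4.51 with palmitate, a log2 fold change of -0.44 (-0.76 to -0.12, edgeR adjusted p = 0.209).

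Cyclins of S, G2 and M phase were scarce while their kinase was not. Cdk1 had 16.1 and 16.8 CPM in untreated cells, 17.8 and 16.4 under A66, 17.3 and 17.6 under palmitate, and 17.9 and 19.0 under palmitate plus A66. Its lowest value was in an untreated culture and its highest in one with both agents, and its intervals lay between 0.926-fold and 1.21-fold. Ccna2, cyclin A2, had 2.52 and 3.94 CPM in untreated cells, 2.55 and 3.62 under A66, 3.15 and 3.25 under palmitate, and 3.05 and 2.79 under palmitate plus A66. Ccnb1, cyclin B1, had 1.91 and 2.65 CPM in untreated cells, 1.58 and 2.41 under A66, 2.51 and 2.13 under palmitate, and 2.21 and 1.95 under palmitate plus A66. For both genes the untreated pair alone spanned most of the range, so that the spread between replicates covered any difference between groups.

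Ccnb2 had 0.400 and 0.610 CPM in untreated cells, 0.618 and 0.916 under A66, 0.985 and 0.821 under palmitate, and 0.804 and 0.823 under palmitate plus A66. The 6 treated cultures all lay above both untreated cultures. Its log2 fold change with palmitate was 0.81, with a wide interval of 0.09 to 1.54 (edgeR adjusted p = 0.337). It was the gene of lowest level in the list.

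The summed CPM of the genes of mitosis and chromosome segregation varied more between libraries than that of any other role group. The summed level of the 10 genes was 38.1 and 44.4 CPM in untreated cells, 30.3 and 40.4 under A66, 36.0 and 37.1 under palmitate, and 35.0 and 32.6 under palmitate plus A66. The highest library was 1.46 times the lowest, whereas the ratio was between 1.07 and 1.17 in the other 6 groups. Replicates differed within groups. In untreated cells replicate 2 was above replicate 1 for 8 of the 10 genes, with a median log2 ratio of 0.30, and with A66 for 9 of the 10, with a median of 0.47. The later cyclins and Cdk1 had larger median ratios of 0.53 in both of these groups, with 4 of 4 and 3 of 4 genes higher in replicate 2, but their sum is mostly Cdk1. With palmitate replicate 2 was above for 5 of the 10 mitotic genes, and with palmitate plus A66 for 3 of the 10. Over the whole list replicate 2 was above for 35 of the 50 genes in untreated cells, 38 under A66, 26 under palmitate and 16 under palmitate plus A66, against 49.7% to 50.1% of all genes. In 45 further G2/M genes, listed from general knowledge, the share was 68.9% in untreated cells, 66.7% under A66, 60% under palmitate and 46.7% under palmitate plus A66. In 41 further S-phase genes it was 65.9% in untreated cells and 68.3% under A66. In 18 genes of E2F, RB and DREAM regulation it was 55.6% and 44.4%.

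**Figure D2:**
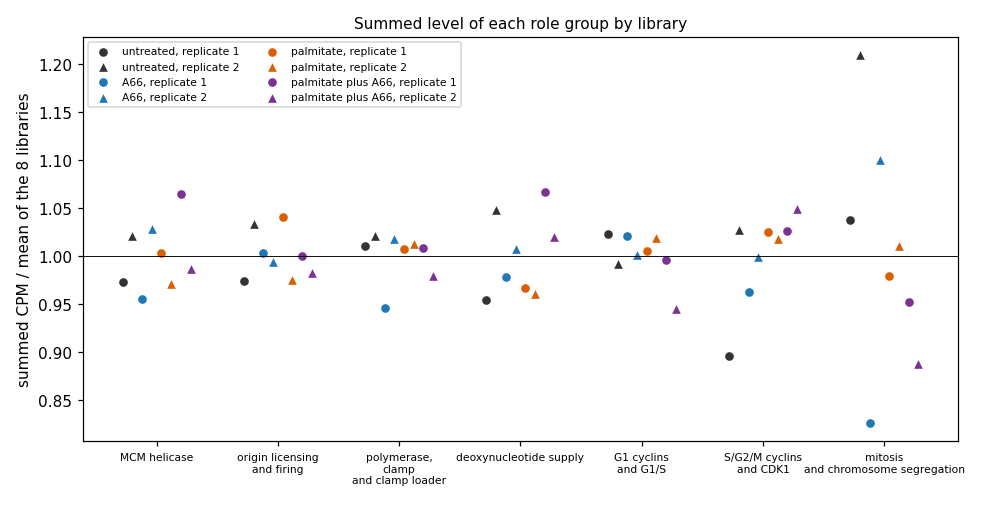
Each point gives the summed CPM of the genes of a role group (x axis) in a library, divided by the mean of that group over the 8 libraries (y axis, not starting at 0), with colours for the treatment groups, circles for replicate 1 and triangles for replicate 2. The mitotic group spreads from 30.3 to 44.4 CPM before scaling, and both its extremes come from the 4 cultures without palmitate.

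Birc5, the survivin gene of the chromosomal passenger complex, had 1.15 and 2.29 CPM in untreated cells, 1.12 and 2.07 under A66, 1.40 and 1.14 under palmitate, and 1.07 and 1.23 under palmitate plus A66. Plk1, a kinase of mitotic entry, had 0.966 and 0.999 CPM in untreated cells, 0.715 and 1.11 under A66, 0.588 and 1.12 under palmitate, and 1.11 and 0.843 under palmitate plus A66, with overlap between all groups. For Mki67, which codes for the proliferation marker Ki-67, the values were 9.18 and 9.10 CPM in untreated cells, 6.91 and 9.51 under A66, 7.57 and 8.19 under palmitate, and 6.99 and 7.31 under palmitate plus A66. Its replicates under A66 differed from each other by more than the group means did.

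The question of the first comparison was what inhibition of p110α does to the cells. With A66 against untreated cells, 0 of the 50 genes passed an adjusted p of 0.05 in edgeR, beside 1.84% of all 14158 genes tested on these 4 libraries, and 0 passed in DESeq2, beside 1.27%. At an unadjusted p under 0.05 there were 9 genes, 1 higher and 8 lower, beside 12.8% of all genes. The median log2 fold change of the list was -0.11, and 36 of the 50 values were negative, against 50.4% of all genes. Leaving out 1 library at a time moved this median between -0.17 and -0.01, so its size rests on single cultures. By role, the medians were -0.16 for licensing and firing, -0.14 for the MCM helicase and -0.13 for mitosis, and between -0.08 and -0.01 for the other 4 groups. All 10 mitotic genes had negative values, which share the same 4 libraries.

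The 8 genes that were lower at an unadjusted p under 0.05 were Mcm5, Mcm6, Gins3, Pole, Rrm2, E2f1, Kif11 and Top2a. Pole, the catalytic subunit of the leading-strand polymerase epsilon, had the smallest adjusted p. It had 13.4 and 13.98 CPM in untreated cells and 10.1 and 11.6 with A66, with no overlap, and a log2 fold change of -0.34 (-0.54 to -0.15, edgeR adjusted p = 0.0673). Rrm2, the regulated small subunit of ribonucleotide reductase, had 4.80 and 5.86 CPM against 3.96 and 4.03, a log2 fold change of -0.42 (-0.73 to -0.12, edgeR adjusted p = 0.184), which was -0.26 without untreated replicate 2 (edgeR adjusted p = 0.543) and -0.55 without replicate 1 (edgeR adjusted p = 0.0438). Its partner Rrm1 had 51.1 and 57.3 CPM in untreated cells and 55.4 and 57.0 with A66, with overlap between the groups.

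Top2a, the topoisomerase that untangles sister chromatids, had 13.6 and 16.7 CPM in untreated cells and 10.3 and 13.7 with A66, so the groups overlapped. Its log2 fold change was -0.34 (-0.57 to -0.10, edgeR adjusted p = 0.161), and it passed the threshold when untreated replicate 1 was left out (-0.47, edgeR adjusted p = 0.000661) or A66 replicate 2 (-0.55, edgeR adjusted p = 0.0317), which are the cultures that stand on the near side of each pair. Without untreated replicate 2 it was -0.18 (edgeR adjusted p = 0.464) and without A66 replicate 1 -0.15 (edgeR adjusted p = 0.869). Kif11, the motor that separates spindle poles, had 2.59 and 2.98 CPM in untreated cells and 1.82 and 2.26 with A66, a log2 fold change of -0.46 (-0.88 to -0.04, edgeR adjusted p = 0.335), and -0.30 when A66 replicate 1 was left out. Gins3, a subunit of the active helicase, had 7.56 and 8.08 CPM against 6.76 and 6.48, a log2 fold change of -0.24 (-0.48 to -0.0021, edgeR adjusted p = 0.386).

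The same inhibitor was also given in the presence of palmitate, in cultures that share no library with the first comparison. Between palmitate plus A66 and palmitate, 1 of the 50 genes passed an adjusted p of 0.05 in edgeR, beside 2.81% of the 14587 genes, and 0 passed in DESeq2, beside 2.71%. At an unadjusted p under 0.05 there were 9, of which 3 were higher and 6 lower, beside 14.4% of all genes. The median log2 fold change was -0.07, with 32 of 50 values negative against 50.3% of all genes, and this median ran from -0.12 to -0.03 when 1 library was left out.

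The gene that passed was Mcm7, which codes for a subunit of the helicase ring (ENSMUSG00000029730, chr5:138164583-138172422 on GRCm38, minus strand), and whose promoter is shown above. It had 47.8 and 49.2 CPM in untreated cells, 52.2 and 58.3 under A66, 51.1 and 49.4 under palmitate, and 59.1 and 56.5 under palmitate plus A66. All 4 cultures with A66 lay above the 4 without it. The log2 fold change with palmitate was 0.20 (0.09 to 0.31, edgeR adjusted p = 0.0453), that is 1.15-fold, and 0.19 without palmitate (0.07 to 0.30, edgeR adjusted p = 0.0984). The latter was 0.11 without A66 replicate 2 (edgeR adjusted p = 0.688) and 0.27 without A66 replicate 1 (edgeR adjusted p = 0.0571). The call with palmitate was not made by DESeq2 (adjusted p = 0.0632) or after scaling by library size only (edgeR adjusted p = 0.0777), and it was lost when any of the 4 libraries compared was left out, with edgeR adjusted p from 0.0728 to 0.304. The direction held in each of these. Annotated exons of Mcm7 contain the sequences of the microRNAs Mir25 and Mir93 on the same strand, and overlap Ap4m1 and Cops6 on the other, so a part of its reads could belong to these.

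The other MCM subunits did not share this pattern. Mcm5 (chr8:75109569-75128439, plus strand) had 6.41 and 8.16 CPM in untreated cells, 5.50 and 5.58 under A66, 5.50 and 6.45 under palmitate, and 4.84 and 4.66 under palmitate plus A66. The cultures with both agents were the lowest of the 8, and in each medium the A66 pair did not overlap its control pair. The log2 fold change of Mcm5 was -0.40 for A66 against untreated cells (-0.67 to -0.13, edgeR adjusted p = 0.151), -0.33 for palmitate plus A66 against palmitate (-0.61 to -0.05, edgeR adjusted p = 0.245) and -0.29 for palmitate against untreated cells (-0.56 to -0.02, edgeR adjusted p = 0.358). Without untreated replicate 1, the first of these passed, at -0.55 (edgeR adjusted p = 0.00903), while without untreated replicate 2 it was -0.20 (edgeR adjusted p = 0.590). Without that same culture the value for palmitate was -0.10 (edgeR adjusted p = 0.845), and without untreated replicate 1 it was -0.45. Without palmitate replicate 1 it was -0.18, and without palmitate replicate 2 the value between both agents and palmitate was -0.21.

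Mcm6 had 20.3 and 20.8 CPM in untreated cells, 16.5 and 19.1 under A66, 19.8 and 18.7 under palmitate, and 21.5 and 18.9 under palmitate plus A66. The log2 fold change of A66 was -0.21 without palmitate (-0.37 to -0.04, edgeR adjusted p = 0.244), and -0.11 when A66 replicate 1 was left out. Mcm2, Mcm3 and Mcm4 stayed between 18.9 and 23.4, 12.4 and 14.9, and 30.3 and 33.5 CPM over the 8 libraries. Over the 4 comparisons, the intervals of all 6 subunits lay between 0.628-fold and 1.28-fold.

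Cdc6 (chr11:98907801-98923940, plus strand), which loads the helicase together with Cdt1, had the most negative log2 fold change of the list with palmitate and the highest for palmitate plus A66 against palmitate, at a low level. It had 1.84 and 1.57 CPM in untreated cells, 1.43 and 1.17 under A66, 1.04 and 0.783 under palmitate, and 1.53 and 1.53 under palmitate plus A66. The palmitate pair was below all other cultures, and the cultures with both agents lay near the lower untreated culture. The log2 fold change of Cdc6 was -0.89 with palmitate (-1.43 to -0.36, edgeR adjusted p = 0.106) and 0.74 for palmitate plus A66 against palmitate (0.20 to 1.28, edgeR adjusted p = 0.149). The interaction of the agents was 1.12 on the log2 scale (0.37 to 1.87, edgeR adjusted p = 0.437).

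Cdc45, which joins MCM and GINS into the active helicase, had 8.05 and 7.58 CPM in untreated cells, 7.18 and 7.31 under A66, 7.76 and 8.76 under palmitate, and 6.06 and 6.54 under palmitate plus A66. Its log2 fold change between the last groups was -0.39 (-0.62 to -0.16, edgeR adjusted p = 0.0668), and it passed after scaling by library size only (edgeR adjusted p = 0.0459). Rrm1, the large subunit of ribonucleotide reductase, had 52.5 and 52.7 CPM under palmitate and 60.8 and 58.1 under both agents, a log2 fold change of 0.18 (0.07 to 0.29, edgeR adjusted p = 0.0821). Pold1 and Pole, the catalytic subunits of polymerases delta and epsilon, had log2 fold changes of -0.27 (edgeR adjusted p = 0.296) and -0.20 (edgeR adjusted p = 0.325) in this comparison, and Pold1 had -0.14 when palmitate plus A66 replicate 2 was left out and -0.42 when replicate 1 was. Orc1, the largest subunit of the origin recognition complex, was among the lowest of the list, with 1.32 and 1.15 CPM in untreated cells, 0.811 and 1.22 under A66, 1.04 and 1.27 under palmitate, and 1.30 and 0.763 under palmitate plus A66, and its groups overlapped.

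**Figure D3:**
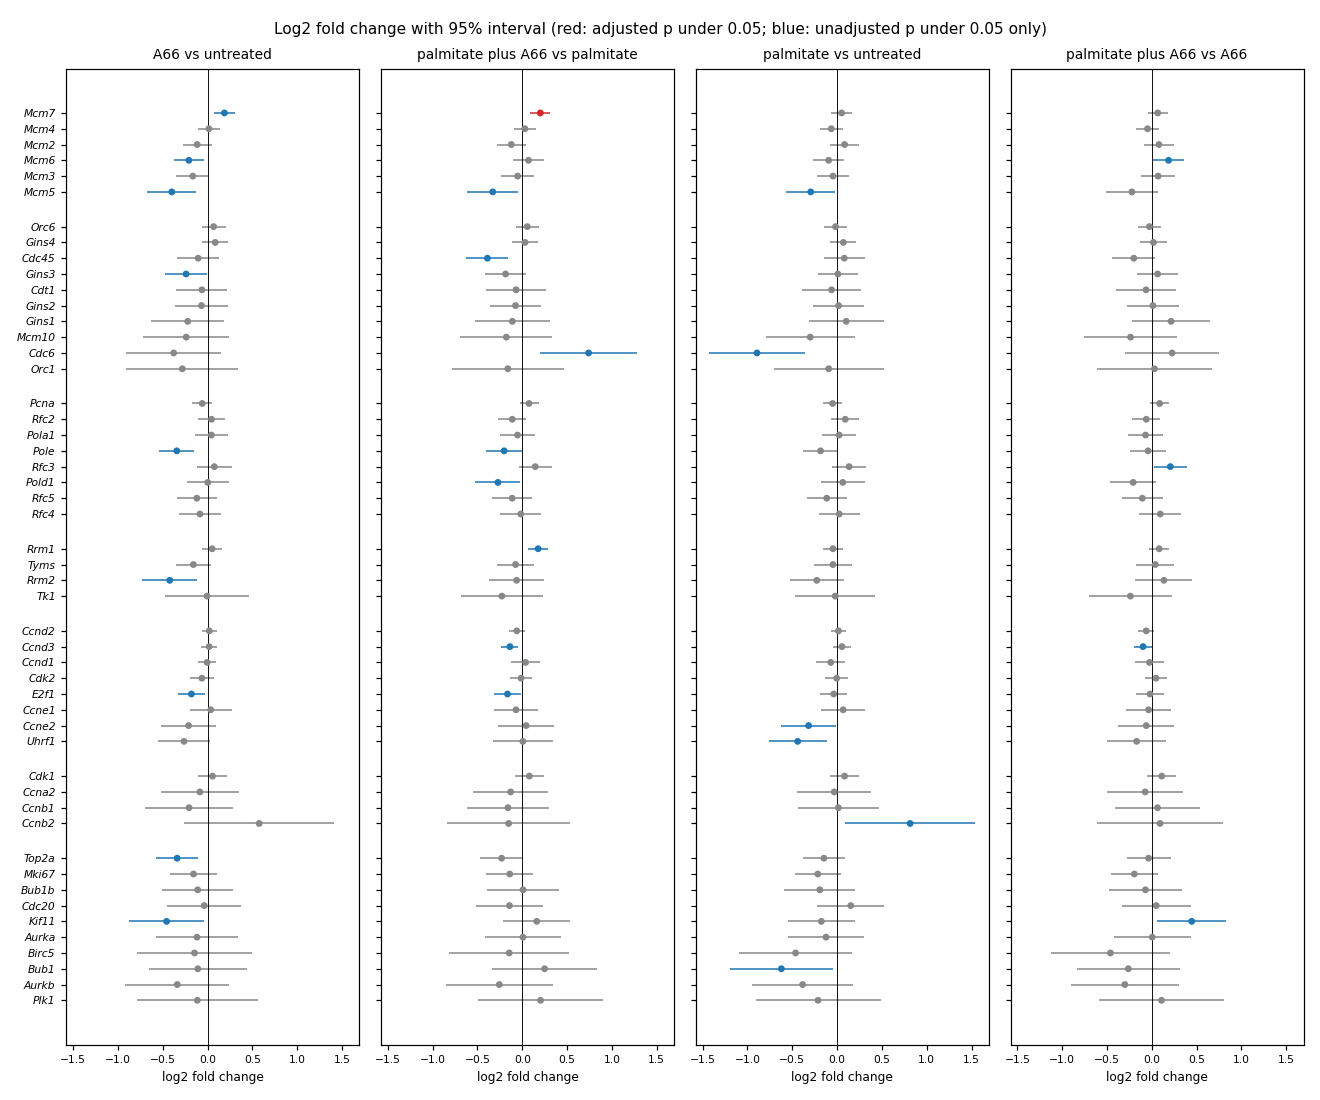
Points give the log2 fold change of each of the 50 genes (rows, ordered as in the plot of levels) and bars its 95% interval from edgeR, in 4 comparisons of 2 groups with 2 libraries each. Only Mcm7, for palmitate plus A66 against palmitate, is drawn in red for an adjusted p under 0.05, and most intervals include 0.

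The effects of A66 in the presence and absence of palmitate were set side by side. Without palmitate both A66 cultures lay below both untreated cultures for 16 genes, beside 22.3% of all genes, and above them for 4, beside 20.3%. With palmitate they lay below for 14, beside 22.4%, and above for 8, beside 21.9%. Mcm5, Cdc45, Gins3, Pole, Rfc5 and E2f1 were below in both media, which makes 6 of 50 beside 7.74% of all genes. Mcm7, Orc6 and Rfc3 were above in both, 3 of 50 beside 7.11%. Cdc6 and Kif11 were below without palmitate and above with it, 2 of 50 beside 2.87%, and 0 of 50 had the reverse order, beside 2.57%. All these counts come from the same libraries, so that they are not independent of each other.

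By the sign of the fold change, 25 of the 50 genes were lower with A66 in both media, 7 were higher in both and 18 differed in sign, against 29.7%, 28.9% and 41.4% of all genes. Across the 50 genes, which are measured in the same libraries, Pearson's r of the log2 fold changes was 0.0391, and it was 0.141 across all genes.

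**Figure D4:**
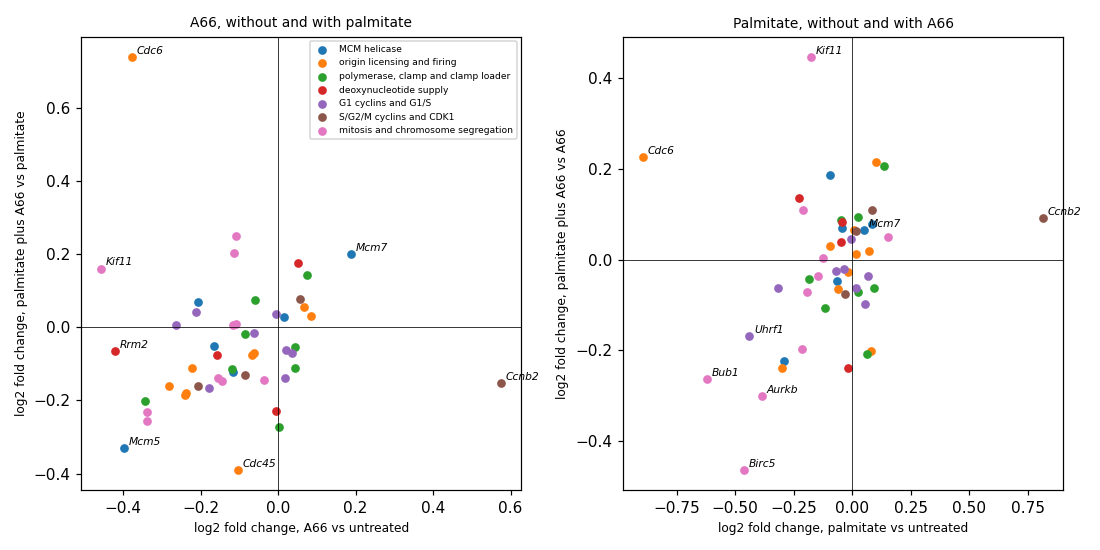
The left panel plots, for each of the 50 genes, the log2 fold change of A66 without palmitate (x axis) against that with palmitate (y axis), and the right panel that of palmitate without (x axis) and with A66 (y axis), coloured by role. On the left 25 genes lie in the lower left field, Mcm7 is the farthest of the 7 in the upper right, and Cdc6 lies apart at -0.38 and 0.74.

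Palmitate against untreated cells asked what the fatty acid does by itself. In edgeR 0 of the 50 genes passed, beside 1.17% of all genes, and 0 in DESeq2, beside 1.34%. At an unadjusted p under 0.05 there were 6, beside 12% of all genes, and these were Ccnb2 on the higher side and Mcm5, Cdc6, Ccne2, Uhrf1 and Bub1 on the lower. Bub1, a kinase of the spindle checkpoint, had 1.41 and 1.76 CPM in untreated cells and 0.830 and 1.249 with palmitate, a log2 fold change of -0.62 (-1.19 to -0.05, edgeR adjusted p = 0.360), and -0.35 when palmitate replicate 1 was left out and -0.94 when replicate 2 was. The median log2 fold change of the 50 was -0.05 (-0.06 to -0.02 when 1 library was left out), with 31 negative against 49.8% of all genes, and that of the 10 mitotic genes was -0.20, with 9 negative.

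Palmitate in the presence of A66 was tested as palmitate plus A66 against A66. Again 0 of 50 passed in edgeR, beside 2.73% of all genes, and 0 in DESeq2, beside 2.78%, and 4 had an unadjusted p under 0.05, beside 14.6%. These were Mcm6 at a log2 fold change of 0.19, Rfc3, a subunit of the clamp loader, at 0.21, Kif11 at 0.45 and Ccnd3 at -0.10, with edgeR adjusted p from 0.247 to 0.325. Without A66 replicate 1 Mcm6 had 0.08 and Kif11 0.29, and without A66 replicate 2 Mcm6 had 0.29. Without palmitate plus A66 replicate 1 Mcm6 had 0.09. The median was -0.02, with 26 of 50 negative against 49.8%, and it ran from -0.07 to 0.06 when 1 library was left out. Marker genes of the cell types also passed in edgeR. In this comparison 7 of the 11 adipocyte markers were lower, and Cd68, a leukocyte marker, was higher (log2 fold change 0.91, edgeR adjusted p = 0.0014). Only 4 of the 8 leukocyte markers were tested, of which 1 passed, Cd68, and 1 had a negative value. With palmitate plus A66 against palmitate 3 of the 11 adipocyte markers (Cidec, Slc2a4 and Retn) and the fibroblast marker Col1a1 (-0.33, edgeR adjusted p = 0.000175) were lower. Cidec did not pass in DESeq2 (adjusted p = 0.366). Of the 10 fibroblast markers tested there 6 were negative, and Vim was on the higher side (0.14, edgeR adjusted p = 0.0746, DESeq2 adjusted p = 0.0146). With palmitate against untreated cells Lpl was lower (-0.19, edgeR adjusted p = 0.0331), with 10 of the 11 adipocyte markers negative, and Col1a1 was higher (0.25, edgeR adjusted p = 0.00331). With A66 against untreated cells Vim was higher (0.19, edgeR adjusted p = 0.0082), while 4 of the 10 fibroblast markers tested were negative. The part of these shifts in the values of the 50 genes was not tested.

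By sign, 19 genes were lower with palmitate both without and with A66, 12 were higher in both and 19 differed, against 28.9%, 29.3% and 41.8% of all genes, with r of 0.268 across the 50 genes and 0.0507 across all genes. The difference between the effects of A66 in the 2 media was tested as an interaction. It passed for 0 of 50 genes in edgeR, beside 0.00686% of all genes, which is 1 gene, and for 0 in DESeq2, beside 0.0411%. At an unadjusted p under 0.05 there were 4, beside 7.92%, namely Mcm6 at 0.28, Cdc6 at 1.12, Kif11 at 0.62 and Ccnd3 at -0.15 on the log2 scale. That of Mcm6 was 0.18 without A66 replicate 1 or without palmitate plus A66 replicate 1. Kif11 had 2.56 and 2.39 CPM under palmitate and 2.84 and 2.69 under both agents, so its order with A66 was opposite to that without palmitate, with an edgeR adjusted p of 0.573 for the interaction.

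How small a change these libraries could show depended on the level. In the comparison of A66 with untreated cells the median half-width of the 95% interval was 0.56 on the log2 scale for the 10 genes under 2 CPM, 0.40 for the 10 between 2 and 5, 0.23 for the 18 between 5 and 20 and 0.12 for the 12 above. In terms of fold this is 1.48, 1.32, 1.17 and 1.09. In that comparison the interval lay within 2-fold in either direction for 49 of 50 genes and within 1.5-fold for 37. For palmitate the counts were 46 and 39, for palmitate plus A66 against palmitate 49 and 38, and against A66 49 and 39. For single genes under 2 CPM the half-width with A66 ran from 0.45 to 0.83. Among them Cdc6 at 0.538-fold and Ccnb2 at 1.76-fold with palmitate did not pass the adjusted threshold.

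**Figure D5:**
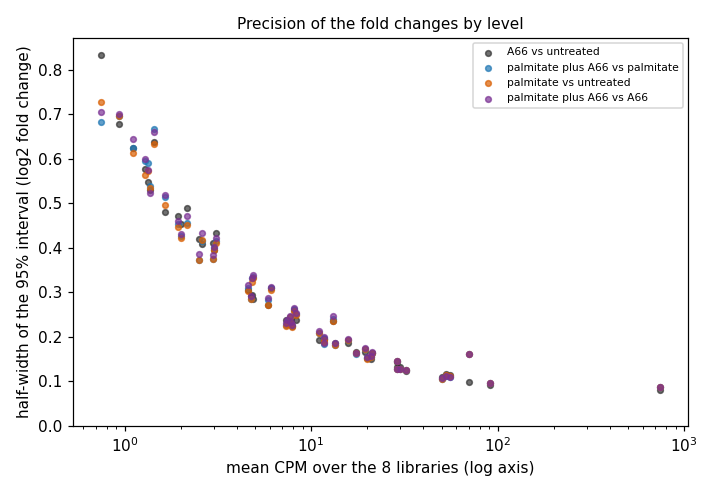
Each point is a gene in a comparison of 2 groups, with its mean CPM over the 8 libraries on a log x axis and the half-width of the 95% interval of its log2 fold change on the y axis. The half-width shrinks from medians near 0.56 under 2 CPM to 0.12 above 20 CPM.

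Genes with and without an E2F match in the promoter were also compared. For A66 against untreated cells the median log2 fold change was -0.11 in the 14 genes with a match and -0.11 in the 25 without, and for palmitate it was -0.03 and -0.05. For palmitate plus A66 against palmitate the medians were -0.03 and -0.11, and against A66 they were 0.06 and -0.02. Mcm7 and Mcm5 both have E2F matches and lay on opposite sides of 0 in both A66 comparisons.

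Other genes of the cycle were taken from lists written from general knowledge. Of 41 further S-phase genes 1 passed in edgeR, for palmitate against untreated cells, beside 1.17% of all genes there, and 0 passed in the other 3 comparisons, beside 1.84% to 2.81%. This was Dna2, a nuclease and helicase that trims Okazaki fragments, with 4.25 and 3.92 CPM in untreated cells, 3.12 and 3.52 under A66, 2.63 and 2.65 under palmitate, and 3.25 and 3.41 under palmitate plus A66. It was lower with palmitate by edgeR (log2 fold change -0.63, adjusted p = 0.0466) and not past the threshold in DESeq2 (adjusted p = 0.0806), nor when any untreated, A66 or palmitate culture was left out (edgeR adjusted p from 0.0523 to 0.273). Of this list 34 of 41 values were negative with palmitate, against 49.8% of all genes, with a median of -0.11, and 30 of 41 with A66, against 50.4%, with a median of -0.06, and these comparisons share the untreated pair. In the comparisons without that pair, 15 of 41 were negative for palmitate plus A66 against palmitate (median 0.05), beside 50.3% of all genes, and 19 of 41 against A66 (median 0.01), beside 49.8%. Pola2, the regulatory subunit of polymerase alpha, had a log2 fold change of -0.33 with palmitate (edgeR adjusted p = 0.0635). With A66 the smallest p in the list were those of Prim2 (-0.26, edgeR adjusted p = 0.237) and Cdc7 (-0.23, edgeR adjusted p = 0.264).

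Of 45 further G2/M genes and of 18 genes of E2F, RB and DREAM regulation, 0 passed in edgeR or in DESeq2 in any of the 4 comparisons, beside 1.17% to 2.81% of all genes in edgeR, so that these counts are near the background. At an unadjusted p under 0.05 in edgeR there were 3 to 4 of the 45 and 0 to 1 of the 18, beside 12% to 14.6% of all genes. The G2/M genes of smallest p were Cdc25b (0.19, edgeR adjusted p = 0.189) and Tpx2 (-0.23, edgeR adjusted p = 0.341) with A66, and Racgap1 (-0.24, edgeR adjusted p = 0.259) and Nek2 (0.89, edgeR adjusted p = 0.282) with palmitate. Among the regulators they were Tfdp1 (-0.09, edgeR adjusted p = 0.463) and E2f4 (-0.11, edgeR adjusted p = 0.515) with A66, and Lin9 (-0.26, edgeR adjusted p = 0.305) and Mybl2 (-0.40, edgeR adjusted p = 0.507) with palmitate. Several of these values rest on single cultures. Cdc25b was 0.11 without A66 replicate 1 (edgeR adjusted p = 0.866), and E2f4 was 0.0042 without that culture and -0.24 without A66 replicate 2. Tfdp1 was -0.03 without untreated replicate 2 and -0.14 without untreated replicate 1, and Mybl2 was -0.21 without untreated replicate 1. With palmitate 36 of the 45 and 15 of the 18 values were negative, against 49.8% of all genes, and in the presence of A66 20 of the 45 and 11 of the 18 were. With A66 34 of the 45 (median -0.10) and 12 of the 18 (median -0.03) were negative, against 50.4% of all genes, in a comparison that shares the untreated pair with that of palmitate. For palmitate plus A66 against palmitate these counts were 27 of the 45 and 7 of the 18, against 50.3%.

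The G1 kinases and their inhibitors gave the other calls. Of 9 such genes 8 were tested. In edgeR 1 of the 8 passed for A66, 0 for palmitate, 1 for palmitate plus A66 against palmitate and 1 against A66. The shares of all genes were 1.84%, 1.17%, 2.81% and 2.73%. Cdkn1a, the p21 inhibitor of cyclin-dependent kinases and a p53 target, had 124.9 and 125.7 CPM in untreated cells, 112.7 and 107.1 under A66, 117.3 and 123.9 under palmitate, and 111.6 and 114.5 under palmitate plus A66. It was lower with A66 than in untreated cells (log2 fold change -0.19, 95% interval -0.28 to -0.10, edgeR adjusted p = 0.0173, DESeq2 adjusted p = 0.0245). The 4 cultures with A66 were the lowest of the 8. The call was lost without A66 replicate 1 (edgeR adjusted p = 0.0592) or A66 replicate 2 (edgeR adjusted p = 0.349).

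Cdkn2c, the p18 inhibitor of Cdk4 and Cdk6 and a gene that rises in adipocyte differentiation, had 92.1 and 92.1 CPM in untreated cells, 102.6 and 89.2 under A66, 82.2 and 88.2 under palmitate, and 65.9 and 75.4 under palmitate plus A66. It was lower with palmitate plus A66 than with palmitate (log2 fold change -0.27, -0.39 to -0.14, edgeR adjusted p = 0.0159, DESeq2 adjusted p = 0.0104) and than with A66 (-0.44, -0.57 to -0.31, edgeR adjusted p = 9.61e-05, DESeq2 adjusted p = 1.2e-07). The cultures with both agents lay below the other 6. The call against palmitate was lost without palmitate replicate 2 (edgeR adjusted p = 0.200) or palmitate plus A66 replicate 1 (edgeR adjusted p = 0.284), and that against A66 held without any 1 library. Cdkn2a and Cdkn2b, which lie next to each other and also inhibit G1 kinases, had log2 fold changes of 0.25 (edgeR adjusted p = 0.0928) and 0.23 (edgeR adjusted p = 0.207) with palmitate. With A66 Cdkn2a had 0.12 (edgeR adjusted p = 0.453), which passed without untreated replicate 2 (0.28, edgeR adjusted p = 2.88e-05) and was -0.0054 without untreated replicate 1, 0.04 without A66 replicate 1 and 0.21 without A66 replicate 2. For palmitate Cdkn2a was 0.40 without untreated replicate 2 (edgeR adjusted p = 0.00454), 0.12 without untreated replicate 1 and 0.17 without palmitate replicate 2. Its adjusted p over the alternatives ran from 2.47e-05 without the filter on low counts to 0.639 without 1 of the libraries, and it had 71.6 and 87.7 CPM in the untreated cultures, so its value depends on that pair. Of 14 p53 targets 1 passed in edgeR with A66, beside 1.84% of all genes, and this is the Cdkn1a call already given. Mdm2, the ubiquitin ligase of p53, passed in DESeq2 alone, for palmitate plus A66 against palmitate (log2 fold change 0.14, DESeq2 adjusted p = 0.00702, edgeR adjusted p = 0.0982), beside 2.71% of all genes in DESeq2. Gdf15, a stress-induced cytokine, had 0.82 with palmitate (edgeR adjusted p = 0.109, and 0.00504 without the filter on low counts) and 0.52 with A66 (edgeR adjusted p = 0.407). Without untreated replicate 1 the values of Gdf15 were 0.55 and 0.25, without untreated replicate 2 they were 1.2 and 0.90, and without A66 replicate 2 the latter was 0.32. Btg2, an antiproliferative gene, had -0.13 with palmitate (edgeR adjusted p = 0.282).

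As a whole the summed level of the 50 genes was 1490 and 1489 CPM in untreated cells, 1475 and 1488 under A66, 1485 and 1488 under palmitate, and 1487 and 1415 under palmitate plus A66. Without Ccnd2 the sums ran from 703.7 to 761.4 CPM, a ratio of 1.08, with the lowest in a culture with both agents and the highest in an untreated one.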

How the data were processed

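Per the labels and the methods, poly(A) RNA from 8 cultures was sequenced with a stranded kit. The authors aligned the reads to GRCm38 with TopHat2 2.0.11 and deposited raw counts per gene from HTSeq, without normalization. Whether strand was used in counting is not given in the sources used here. The 43629 identifiers were matched to GENCODE release M21, which gave 42548 symbols.

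Each comparison was tested by edgeR 4.0.16 under R 4.3.3 (TMM, filterByExpr with a minimum count of 10, two-sided quasi-likelihood tests, Benjamini-Hochberg adjustment over all genes tested). A66 against untreated cells was fitted on its 4 libraries and the other comparisons on all 8, which share 1 estimate of the spread. The 95% intervals use the standard error and degrees of freedom of that test. The scripts were tested on simulated data. Alternatives were scaling by library size only, no filter, DESeq2 1.42.0, the 4 libraries of the groups compared, a replicate block and leaving out each library.

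The 50 genes and the other lists were chosen with earlier results of these data known. Values in every library are given for genes with an adjusted p under 0.05, for the cyclins and their kinases, for the 3 highest and 3 lowest genes and, outside this rule, for genes chosen after their values were seen. Of each further list the text names the 2 genes with the smallest p for palmitate and for A66.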

Additional observations from a re-analysis of the deposited data

How the results depend on the processing

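With 2 libraries per group, 0 of the 50 genes passed edgeR in 4 of the 5 comparisons, and these counts shifted by few genes. Without the filter on low counts 3 genes passed for A66 (Mcm7, Pole, Top2a), 1 for palmitate (Cdc6) and 3 for palmitate plus A66 against palmitate (Cdc45, Mcm7, Rrm1), and the calls over all genes were 459, 396, 652, 664 and, for the interaction, 91. With library size only, Pole alone passed for A66, 1 gene in place of 0, and the interaction had 2 calls. In DESeq2 0 passed for palmitate plus A66 against palmitate in place of 1, and the interaction had 6. On the 4 libraries of palmitate plus A66 and A66 there were 689 calls in place of 398. The cause was not tested. Leaving out each library, the genes of the list called ranged from 0 to 4 for A66 (Mcm5, Pole, Rrm2 and Top2a without untreated replicate 1, Mcm7 without untreated replicate 2, Top2a without A66 replicate 2), 0 to 0 for palmitate, 0 to 2 for palmitate plus A66 against palmitate (Mcm7 and Rrm1 without either untreated replicate), and 0 to 0 for the last comparisons. Calls over all genes ranged from 98 to 635, 71 to 245, 147 to 494, 107 to 502 and 0 to 10, and the median log2 fold change of the list from -0.1693 to -0.0105, -0.0626 to -0.0154, -0.1218 to -0.0254, -0.0686 to 0.0554 and -0.0011 to 0.0941, so that only the first 3 medians kept their sign. Of the fold changes of single genes under these alternatives, 681 kept their direction and side of the threshold, 22 gained a call, 19 lost one (Mcm7, Dna2, Cdkn1a and Cdkn2c) and 2 changed sign, both uncalled for A66, Cdkn2a to -0.0054 without untreated replicate 1 and E2f4 to 0.0042 without A66 replicate 1.

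The labels do not say whether equal replicate numbers share a culture or day. Deviations of equal numbers correlated between -0.13 and 0.148 between groups across all genes. Across the 50 genes they correlated between -0.18 and 0.355, with the highest value for untreated cells and A66. With a replicate block the calls over all genes were 282, 195, 448, 438 and 3, and in the list only Mcm7 passed, in the same comparison, while Dna2 lost its call (adjusted p = 0.0528). Crossing the numbers of A66 and palmitate plus A66, an alternative chosen after seeing the data, gave 1371 calls and 0 in the list.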
